A study of Mus musculus with 21 samples.

Results

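Mouse chromosome 12 was followed gene by gene in 7 glioma stem-like cell lines. Members were the protein-coding genes of chromosome 12 with a mean of at least 2 FPKM (fragment counts divided by library size and by gene length) over the 21 libraries. They numbered 324, of 9627 such genes in all, and of 643 protein-coding genes on the chromosome; 319 lay under that minimum. For each gene, the mean of log2(FPKM + 0.5) over the 3 libraries of a line was taken, and its deviation from the mean of the 7 lines was read in order of gene start and in fixed windows of 10 Mb. The chromosome was selected on these same deviations, chosen by their shift in single lines, so they are given as a description, with no test. At the FPKM minimum, the members just inside were Gpatch2l, Kcnk13 and Btbd6, each at a mean of 2.06 FPKM, and the genes just outside were Adck1 (1.98 FPKM), Gen1 (1.97 FPKM) and Fancm (1.95 FPKM).

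The lines come from tumours of genetically engineered mice and were grown as floating cultures in serum-free neural stem cell medium with EGF and bFGF at low oxygen, without a treatment. PIC144-1, PIC144-3, PIC496-3 and PIC496-4 are labelled IDH1 mutant, and PC134-0, PC308-1 and PC326-1 are labelled IDH1 WT, each with 3 libraries called biological replicates. The other alleles of the mice, the age of the animals and whether lines that share the number in their names come from the same animal are not given in the labels. IDH1 encodes a cytosolic isocitrate dehydrogenase, and its tumour mutants make 2-hydroxyglutarate. The libraries held 15011668 to 21966351 recovered fragments, with a median of 442 to 1138.5 fragments per member. Summed markers of neural progenitors reached 1557 to 2622 FPKM per line, against at most 0.0567 FPKM for microglia (3 of 7 markers at 0 in all libraries) and 0.844 FPKM for endothelium. Neuron markers summed to 26.4 to 72.4 FPKM per line, highest in PC134-0, and mature oligodendrocyte markers to 0.172 to 1.22 FPKM. Fibroblast and pericyte markers summed to 0.369 to 11.2 FPKM, highest in PIC144-1, where Dcn alone was at 10.4 FPKM. In bulk RNA, fewer cells of a kind and less RNA per cell cannot be told apart.

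As background, a cell with an extra or a missing copy of a chromosome often makes more or less of the transcripts of most genes on it, and cultured tumour cells frequently carry such changes. A stretch of a chromosome can also be gained or lost alone, and then the change ends between neighbouring genes. Chromosome 12 of the mouse carries, among others, Dnmt3a (a de novo DNA methyltransferase), Id2 (an inhibitor of basic helix-loop-helix factors), Hif1a (the oxygen-regulated transcription factor), Fos and Akt1. Only RNA was measured here, and DNA copy number was not analysed, so each shift below is a shift of transcript level relative to the other lines. A line shifted by some amount moves the mean of the 7 lines with it, so that the deviations of the other lines move the opposite way by a smaller amount.

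The results turn on Dld and Cbll1, neighbouring members at which the level of PC326-1 changed sign. Dld encodes dihydrolipoamide dehydrogenase of the mitochondrial 2-oxoacid dehydrogenase complexes and lies at chr12:31331277-31351453, and Cbll1 encodes an E3 ubiquitin ligase and lies at chr12:31484829-31499616, both in GRCm38. The 250 bases before their starts are shown because these neighbours, both read from the minus strand, went opposite ways in level in PC326-1. Both windows hold more CG dinucleotides than the median of all RefSeq promoter windows, though that of Dld lies below the medians of the members. They are from RefSeq on GRCm38.p6, at chr12:31351472-31351721 for Dld and chr12:31499617-31499866 for Cbll1, printed 5′ to 3′ on the minus strand with CG dinucleotides in capitals.
Dld: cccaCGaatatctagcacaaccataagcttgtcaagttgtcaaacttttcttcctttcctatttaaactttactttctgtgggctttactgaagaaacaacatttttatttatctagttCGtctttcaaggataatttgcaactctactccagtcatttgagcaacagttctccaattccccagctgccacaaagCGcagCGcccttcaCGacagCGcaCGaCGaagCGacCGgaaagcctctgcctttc
Cbll1: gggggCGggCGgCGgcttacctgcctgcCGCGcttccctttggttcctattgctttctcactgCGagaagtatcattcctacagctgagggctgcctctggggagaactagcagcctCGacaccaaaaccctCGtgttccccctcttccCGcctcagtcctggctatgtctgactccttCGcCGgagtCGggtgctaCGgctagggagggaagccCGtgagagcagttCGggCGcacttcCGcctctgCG
The Dld sequence holds 10 CG dinucleotides at a GC content of 43.6%, and the Cbll1 sequence holds 18 at 62.8%. The motif CG reads the same on both strands, and 92.1% of the 32851 RefSeq promoter windows of this length hold at least 1. Of the members, 17 of the 19 raised in PC326-1 matched a promoter, with a median of 15 CG dinucleotides, and 265 of the other 305 matched one, with a median of 19, beside a median of 6 over all windows. These counts describe the windows and name no binding site.

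Chromosome 12 set the lines into 4 levels. PC134-0 and PC326-1 were lowest, with median deviations of -0.54 and -0.55, PIC144-1 and PIC144-3 lay near the mean at -0.02 and -0.04, PIC496-3 and PIC496-4 lay above it at 0.28 and 0.30, and PC308-1 was highest at 0.54. The libraries of each line lay close together. Their medians ran from -0.55 to -0.50 in PC134-0, from -0.57 to -0.55 in PC326-1, from -0.02 to 0.00 in PIC144-1, from -0.05 to -0.03 in PIC144-3, from 0.26 to 0.30 in PIC496-3, from 0.27 to 0.34 in PIC496-4 and from 0.52 to 0.57 in PC308-1. PC134-0 and PC326-1, PIC144-1 and PIC144-3, and PIC496-3 and PIC496-4 formed pairs whose libraries adjoined or overlapped, and between the 4 levels there was no overlap. The genotypes did not follow these levels, since IDH1 WT lines held both the lowest and the highest.

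**Figure D1:**
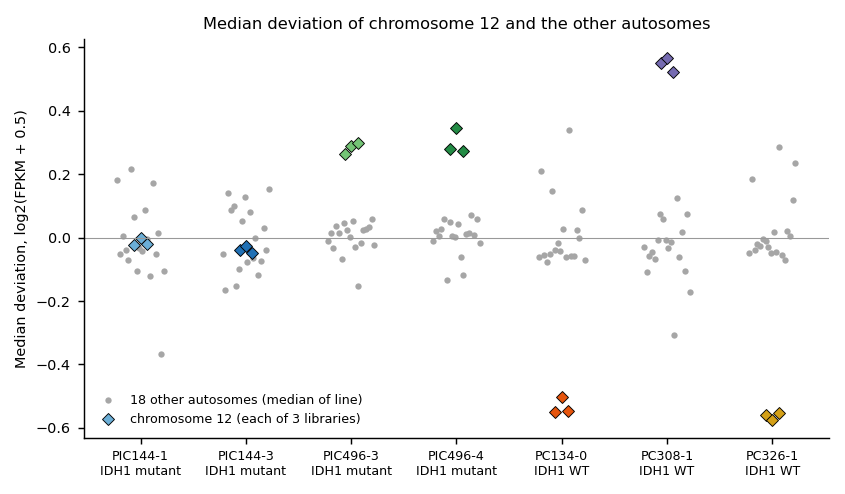
Median deviation on the log2(FPKM + 0.5) scale (y axis) in each line (x axis): diamonds are the medians of the 324 chromosome 12 members in each of 3 libraries, and grey points are the line medians of the 18 other autosomes. In PIC496-3, PIC496-4, PC134-0, PC308-1 and PC326-1 the diamonds lie outside the grey points, and in PIC144-1 and PIC144-3 they lie among them.

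The shift ran through most members. In PC134-0, 306 of 324 members lay below the mean of the lines, in PC326-1 294 did, in PC308-1 313 lay above it, in PIC496-3 286 and in PIC496-4 250. In PIC144-1 and PIC144-3 the members were divided, with 154 and 136 above the mean. None of the 18 other autosomes had a median as large in size as chromosome 12 in PC134-0, PC308-1, PC326-1, PIC496-3 or PIC496-4. In PIC144-1 and in PIC144-3, 15 of the 18 were larger in size.

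Set side by side, the lines differed by like amounts in gene after gene. The median member was 2.15-fold higher in PC308-1 than in PC134-0 (1.11 on the log2 scale), and 318 of 324 members were higher there. As PC134-0 minus PC308-1, the quartiles of members were -1.32 and -0.84, and the median of the other protein-coding genes was 0.01. All 3 libraries of PC308-1 exceeded all 3 of PC134-0 in 314 members (96.9%), against 29.6% of the 9303 other genes. Against PC134-0, the median member was 1.39-fold higher in PIC144-1, 1.41-fold in PIC144-3, 1.76-fold in PIC496-3 and 1.79-fold in PIC496-4. PC326-1 and PC134-0 differed by a median of 0.02, with 175 members higher in PC134-0 and 149 higher in PC326-1. PC134-0 and PC326-1 were the lowest pair of the 7 lines in 68.8% of members and in 12.7% of the other genes, and PC308-1 was the highest line in 55.9% of members and in 13.9% of the others.

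The share of a library's fragments that fell on the 324 members rose in a like order. It was 1.68% to 1.72% in PC134-0, 1.84% to 1.88% in PC326-1, 2.33% to 2.35% in PIC144-3, 2.46% to 2.53% in PIC144-1, 2.92% to 3.00% in PIC496-3, 2.96% to 3.07% in PIC496-4 and 3.66% to 3.77% in PC308-1. The size of the difference was alike at each expression level: in 4 equal groups of members from low to high mean FPKM, PC308-1 exceeded PC134-0 by a median of 1.04, 1.16, 1.14 and 1.12 on the log2 scale. Chromosome 12 genes that the rule left out moved the same way by less. For the 121 protein-coding genes with a mean FPKM of 0.2 to under 2, the medians were -0.24 in PC134-0, 0.39 in PC308-1 and -0.33 in PC326-1. For the 128 non-coding genes with at least 0.2 FPKM they were -0.22, 0.14 and -0.23, and for the 52 with at least 1 FPKM -0.36, 0.30 and -0.23. The added 0.5 shrinks differences at low levels, and its part in these smaller shifts was not tested.

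Abundant genes spread over the chromosome give the measured levels behind these medians. Laptm4a, a lysosomal membrane protein gene near the start of the chromosome, was measured at 111 ± 8.36 FPKM in PC134-0 (SD, n = 3 libraries, as for all line values here), 106 ± 8.63 in PC326-1 and 202 ± 10.2 in PC308-1. Nampt, which encodes the rate-limiting enzyme of NAD salvage, read 24.6, 28.4 and 25.1 FPKM in the libraries of PC134-0 and 23.1, 26.5 and 21.2 in those of PC326-1. In PC308-1 it read 71.1, 68.1 and 66.4 FPKM, above all 6 of those libraries. Egln3, a hypoxia-induced prolyl hydroxylase gene, was at 94.0 ± 5.78 FPKM in PC134-0, 81.0 ± 2.67 in PC326-1, 184 ± 3.5 in PIC496-4 and 210 ± 10.7 in PC308-1. Near the far end, Hsp90aa1, the inducible cytosolic HSP90 chaperone gene, was at 95.0 ± 6.04 FPKM in PC134-0, 91.0 ± 5.83 in PC326-1, 135 ± 1.08 in PIC144-3, 189 ± 14.9 in PIC144-1, 204 ± 7.47 in PIC496-3 and 233 ± 17 in PC308-1. It was highest in PIC496-4, at 304, 397 and 318 FPKM. Erh, which encodes a small nuclear protein, was at 24.9 ± 0.265 FPKM in PC134-0, 25.5 ± 0.533 in PC326-1 and 60.4 ± 4.51 in PC308-1.

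**Figure D2:**
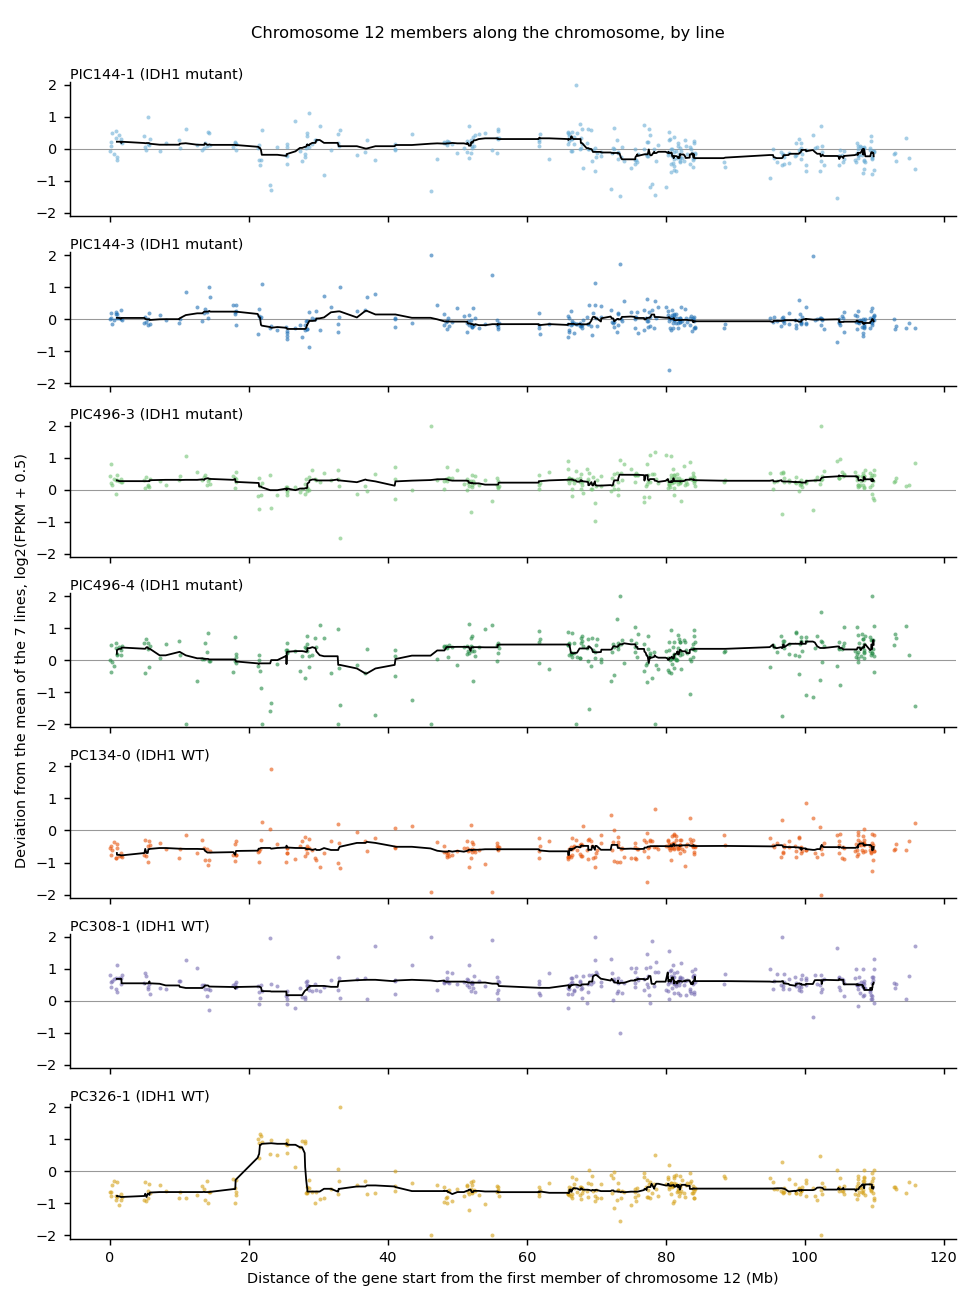
Each panel is a line; points are the 324 members, placed by the distance of their start from that of the first member (x axis, Mb), and the y axis is the deviation from the mean of the 7 lines on the log2(FPKM + 0.5) scale, with 20 points beyond 2 in size drawn at the edge. The black line is the running median over 15 members; it stays on 1 side of 0 along PC134-0 and PC308-1, rises above 0 over 1 stretch of PC326-1, and in PIC144-1 lies below 0 from Kidins220 to Pxdn and from Pcnx4 on, and above 0 elsewhere.

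Read in windows of 10 Mb, the medians lay on 1 side of 0 along the whole chromosome in 3 lines. The medians were below 0 in all 12 windows of PC134-0, from -0.66 to -0.42, and above 0 in all 12 of PC308-1, from 0.40 to 0.73, and of PIC496-3, from 0.09 to 0.31. In windows of 5 Mb, PIC496-3 stood at only 0.03 from 25 to 30 Mb, with 5 members above 0 and 5 below. In PIC496-4, 10 of 12 windows were above 0; the exceptions were 40 to 50 Mb, at -0.46 with 8 members, and 20 to 30 Mb, at -0.0006. In PC326-1, 11 of 12 were below 0, from -0.74 to -0.28, and the window from 20 to 30 Mb stood at 0.57 ± 0.02 (SD of the 3 library medians).

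That window holds most of a stretch of PC326-1 in which every member was raised. It was bounded by a search for the run of neighbouring members whose separate median removed most of the absolute spread, made after the profile was seen. It runs over 19 members from Taf1b (starting at 24498359) to Dld (ending at 31351453), 6.85 Mb. All 19 lay above the mean of the lines in PC326-1, with a median deviation of 0.88 and a range of 0.13 to 1.17, against a median of -0.58 in the 305 other members. The library medians inside were 0.81 to 0.91. The split removed 24.2% of the absolute spread in PC326-1; the best such stretch in each of the other lines removed at most 12.9%, in PIC144-1, and at most 4.92% in the rest.

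Both ends of the stretch lay between members, the far one closely placed. Before Taf1b the nearest member, Ywhaq, ends at 21417637, which leaves 3.08 Mb without a member, and after Dld the nearest member, Cbll1, starts 133 kb on. Ywhaq, which encodes the 14-3-3 theta adaptor protein, read 73.3, 65.9 and 73.3 FPKM in PC326-1, lower than in any other library, the next being 92.4, 97.9 and 94.4 in PC134-0. Taf1b, a subunit gene of the RNA polymerase I factor SL1, read 8.32, 9.08 and 7.93 FPKM in PC326-1. Its other 18 libraries lay between 1.87 FPKM in PC134-0 and 5.82 FPKM in PC308-1, so PC326-1 passed from lowest to highest between neighbours.

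At the far end the reverse was seen. Dld read 75.5, 74.7 and 76.4 FPKM in PC326-1. In the other lines it read 34.9, 35.4 and 34.7 in PIC144-1, 31.8, 31.9 and 28.9 in PIC144-3, 36.0, 36.0 and 34.6 in PIC496-3, 49.3, 57.3 and 51.2 in PIC496-4, 21.4, 23.8 and 22.3 in PC134-0, and 40.7, 43.4 and 39.0 in PC308-1. The 3 libraries of PC326-1 were thus the highest of the 21, with no overlap. Cbll1 read 2.97, 2.81 and 2.85 FPKM in PC326-1. It read 4.71, 5.27 and 5.11 in PIC144-1, 4.74, 4.66 and 4.76 in PIC144-3, 6.19, 6.40 and 6.15 in PIC496-3, 5.89, 7.34 and 6.35 in PIC496-4, 2.67, 3.84 and 2.95 in PC134-0, and 7.83, 8.17 and 7.05 in PC308-1. PC326-1 overlapped only PC134-0 there, and the ratio of PC326-1 to PC134-0 went from 3.36 at Dld to 0.912 at Cbll1. The next members, Bcap29 and Dus4l, had ratios of 1.01 and 1.05.

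**Figure D3:**
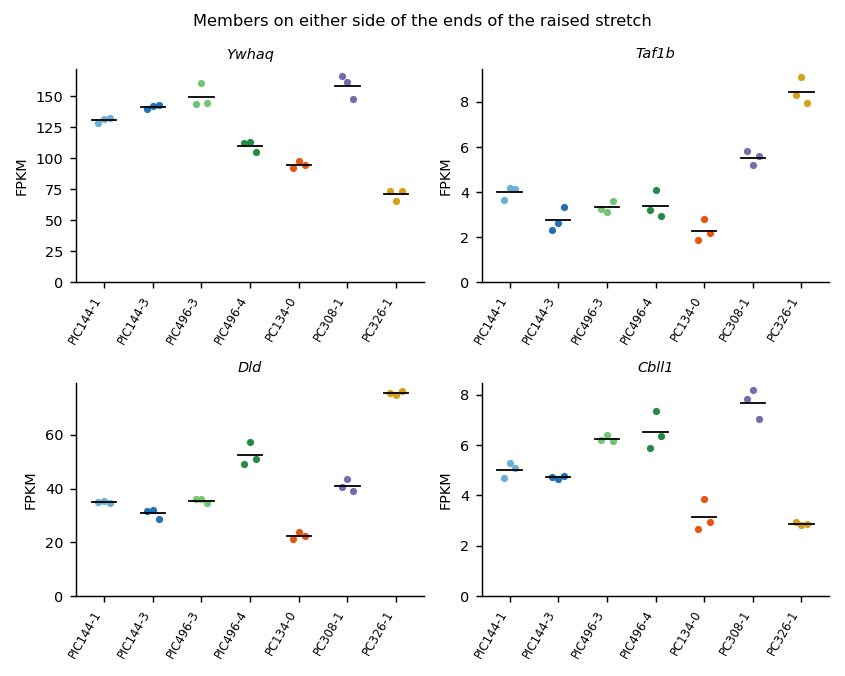
FPKM (y axis, from 0) in each library (points) and line mean (bars) of Ywhaq and Taf1b at the near end and Dld and Cbll1 at the far end of the raised stretch. PC326-1 is the lowest line at Ywhaq and Cbll1 and the highest at Taf1b and Dld.

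Because PC134-0 had nearly the same level as PC326-1 over the rest of the chromosome, the pair shows the stretch most plainly. PC326-1 exceeded PC134-0 by a median of 1.37 inside (2.59-fold, higher in 18 of 19 members) and by -0.02 outside (higher in 131 of 305). All 3 libraries of PC326-1 exceeded all 3 of PC134-0 in 18 of the 19 members inside and in 11.1% of those outside. The stretch was bounded on these same values of PC326-1, so the contrast of inside and outside follows in part from that choice. It is a description of 1 line against another, and libraries of a line are not separate lines. For scale, runs of 19 neighbouring genes on the other autosomes, 8626 overlapping runs in all, had medians from -0.41 to 0.48 for the same pair. For PC308-1 minus PC134-0 such runs reached further, from -0.96 to 1.06, the highest on chromosome 7, and on chromosome 12 they ran from 0.74 to 1.36. Against PC308-1, PC326-1 was higher by a median of 0.61 inside and lower outside, by a median of -1.12.

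The 19 genes have unlike functions. Rps7, a protein of the small ribosomal subunit, read 412, 507 and 440 FPKM in PC326-1, 125, 121 and 129 in PC134-0, and 278, 278 and 271 in PC308-1, with no overlap between these lines; it may share fragments with processed copies elsewhere in the genome. Rrm2, the small subunit of ribonucleotide reductase, stood at 59.9 ± 7.66 FPKM in PC326-1 against 22.4 ± 1.49 in PC134-0, but its libraries overlapped those of PC308-1 and PIC496-3. Kidins220, a scaffold of neurotrophin signalling, was at 43.0 ± 1.95 FPKM in PC326-1 against 16.0 ± 0.315 in PC134-0 and 28.0 ± 3.72 in PC308-1. Mboat2, a lysophospholipid acyltransferase gene, was at 35.1 ± 1.83 FPKM against at most 19.6 FPKM in any library of the other lines. Lamb1 (the laminin beta-1 chain) was at 39.8 ± 2.70 FPKM against at most 25.2, and Acp1 (a low-molecular-weight phosphatase) at 33.3 ± 0.877 against at most 19.8. Sox11, a neural transcription factor gene, was at 49.5 ± 1.88 FPKM and overlapped PC308-1. The remaining members raised against PC134-0 were Klf11, Id2, Rnf144a, Rnaseh1, Adi1, Trappc12, Eipr1, Pxdn and Tmem18, with Taf1b and Dld above, at ratios from 1.42 for Rnf144a to 3.71 for Taf1b.

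The exception was Rsad2, an interferon-induced antiviral gene. It read 5.82, 8.46 and 6.24 FPKM in PC134-0, 2.88, 3.86 and 3.15 in PC326-1 and 2.28, 2.44 and 2.07 in PC308-1, so PC134-0 was the highest line at this one member. Genes of the stretch that the rule left out were also read. Sh3yl1, beside Acp1, was at 4.78 FPKM in PC326-1 and at 0.397 to 1.76 in the other lines, Cmpk2 at 2.34 FPKM against 0.875 to 2.09, and Grhl1 at 0.423 FPKM against 0.0643 to 0.312. The processed pseudogene Gm6969, which lies between Grhl1 and Klf11, did not follow: it was at 70.5 FPKM in PC326-1, with the other lines from 52.5 to 111. Another processed pseudogene, Gm32899, was highest in PC326-1, at 1.17 FPKM against 0.169 to 0.996 in the other lines.

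**Figure D4:**
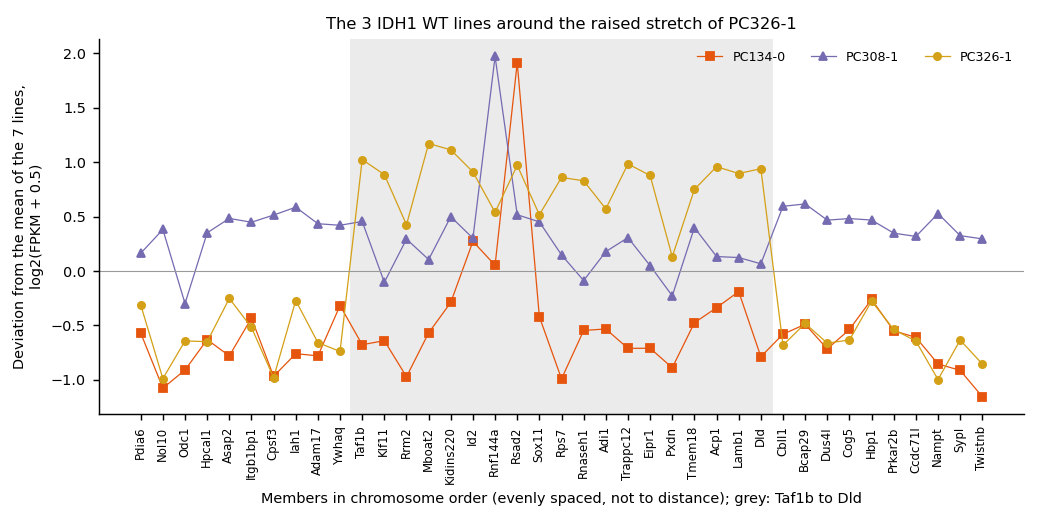
Deviation from the mean of the 7 lines on the log2(FPKM + 0.5) scale (y axis) for members in chromosome order around the stretch (x axis, evenly spaced), in the 3 IDH1 WT lines. Inside the grey band the PC326-1 points lie above 0 at all 19 members, and on either side they lie beside those of PC134-0 and below those of PC308-1, Odc1 being the closest.

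The other lines showed smaller differences over the same genes. PIC496-3 and PIC496-4, raised elsewhere, stood at medians of -0.02 and -0.0006 over the 19, each with 9 above 0. Against PC134-0, PC308-1 was higher by a median of 0.76 inside and 1.13 outside, PIC496-3 by 0.41 and 0.84, PIC496-4 by 0.50 and 0.85, PIC144-3 by 0.31 and 0.51, and PIC144-1 by 0.40 and 0.48. Inside minus outside, these differences were -0.37 in PC308-1, -0.43 in PIC496-3, -0.35 in PIC496-4, -0.20 in PIC144-3 and -0.08 in PIC144-1. All 5 share PC134-0 as their reference. PIC496-4 also held 5 members in a row, Mboat2 to Rsad2, with a median of -1.33. Among them Id2 read 3.5, 3.29 and 2.78 FPKM in PIC496-4, against 42.4 to 83.8 FPKM in all other libraries.

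In PIC144-1 the members of the near and the far side of the chromosome differed in level. The point that best divided its members, found by the same kind of search, lay between Pcnx4, ending at 72580119, and Dhrs7, starting at 72650353. The 148 members before it had a median deviation of 0.16, with 73.0% above 0, and the 176 after it had a median of -0.17, with 73.9% below 0. The library medians were 0.14 to 0.20 before and -0.19 to -0.16 after, without overlap. In the other 6 lines the second side differed from the first by 0.03 to 0.09 only. The division removed 13.3% of the absolute spread in PIC144-1, and no division of another line removed more than 2.80%. The median of -0.02 over the whole chromosome in PIC144-1 thus covers a higher and a lower side. The higher side was not even: over the 19 members from Taf1b to Dld, PIC144-1 stood at a median of -0.19, with 7 above 0. The raised PC326-1 lifts the mean of the 7 lines there, which lowers the deviations of the others. PIC144-3 likewise stood at -0.27 inside and -0.03 outside. By window, 60 to 70 Mb stood at 0.31 ± 0.03 and 80 to 90 Mb at -0.16 ± 0.02.

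Groups of members by function moved with the chromosome in the low and high lines. The lists behind these groups were broad, and some held genes of other functions, among them Taf1b and Adi1. All 8 chaperone and proteasome genes were below the mean in PC134-0 (median -0.70) and in PC326-1 (-0.67) and above it in PC308-1 (0.51), PIC496-3 (0.36) and PIC496-4 (0.60). Psma3 and Psma6, subunits of the proteasome core, were at 12.6 and 56.6 FPKM in PC134-0, 12.2 and 53.8 in PC326-1, and 29.3 and 124 in PC308-1. Of 8 ribosome and translation genes, 0 were above the mean in PC134-0 and 1, Rps7 of the raised stretch, in PC326-1, while all 8 were above it in PC308-1. Eif2s1, the alpha subunit of the initiation factor eIF2, was at 10 ± 0.155 FPKM in PC134-0, 10.4 ± 1.37 in PC326-1, 24.9 ± 0.653 in PC308-1 and 38.0 ± 2.30 in PIC496-4. Wars, the tryptophanyl-tRNA synthetase gene, was likewise highest in PIC496-4, at 51.2 ± 3.27 FPKM.

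Growth control and signalling genes, 16 members, were above the mean in 1 case in PC134-0 (Id2), 2 in PC326-1 (Id2 and Rrm2, both of the raised stretch) and 15 in PC308-1. Akt1, a kinase of growth factor signalling, was at 33.1 FPKM in PC134-0, 35.1 in PC326-1 and 64.5 in PC308-1, and Hif1a at 24.5, 18.1 and 48.6 FPKM. Jag2, a Notch ligand gene, was at 15.7 ± 1.51 FPKM in PIC496-4 and at most 3.8 in the libraries of other lines. Of 10 members of the list for DNA methylation, repair and replication, 0 were above the mean in PC134-0 and 9 in PC308-1. In PC326-1, 1 was, the RNA polymerase I factor gene Taf1b. Dnmt3a was at 7.12 ± 0.343 FPKM in PC134-0, 7.36 ± 0.144 in PC326-1 and 15.1 ± 0.709 in PC308-1. Pole2, a subunit of DNA polymerase epsilon, was the exception in PC308-1, at 3.00 ± 0.449 FPKM against 6.93 ± 0.221 in PIC496-4.

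All 10 members of the mitochondrial and energy list were above the mean in PC308-1 and in PIC496-4, and 0 in PC134-0. In PC326-1, 2 were (Dld and Adi1, both of the raised stretch). Ckb, brain creatine kinase, was the most abundant member. It was at 431 ± 17.8 FPKM in PC326-1, 491 ± 27.1 in PC134-0, 386 ± 17.2 in PIC144-1 and 1285 ± 141 in PC308-1. Its lowest line was PIC144-1, with a deviation of -0.75. Members on the lower side of the chromosome in PIC144-1, where Ckb lies, had a median deviation of -0.17. The part of that side in the level of Ckb was not tested. The 6 members for AP-1, early response and TGF-beta signalling had medians of -0.60 in PC134-0, -0.44 in PC326-1 and 0.70 in PC308-1. Trib2, a pseudokinase gene, read 58.9, 59.8 and 57.9 FPKM in PC326-1, 62.6, 61.1 and 59.0 in PC134-0 and 201, 215 and 190 in PC308-1, with PIC496-4 beside the low lines at 58.8, 66.8 and 60.6.

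Neural patterning and adhesion genes were mixed outside PC308-1. All 12 members were above the mean in PC308-1, with a median of 0.82, but only 4 were in PIC496-4, whose chromosome was raised. Clec14a and Trim9 are members outside that list. Clec14a, an endothelial lectin gene, was at 7.58 ± 0.627 FPKM in PC308-1, 5.23 in PIC144-3, 4.14 in PIC496-4, 1.61 in PIC144-1 and 1.20 in PIC496-3. It was at most 0.110 in the libraries of PC134-0 and PC326-1, while the 5 endothelial markers summed to at most 0.844 FPKM in any line. Trim9, a brain ubiquitin ligase gene, was at 74.7 ± 1.90 FPKM in PIC144-1 and 0.882 ± 0.0992 in PIC496-4.

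Members on the other side of 0 from their line's median numbered 18 in PC134-0, 11 in PC308-1, 30 in PC326-1 (19 of them in the raised stretch), 38 in PIC496-3 and 74 (22.8%) in PIC496-4. The 18 above the mean in PC134-0 were led by Rsad2 (1.91), Ifi27 (0.87), an interferon-induced mitochondrial protein gene, and Ttc9 (0.68). Both members of the interferon list were thus above the mean in a line whose chromosome was low; Ifi27 read 27.8, 28.4 and 26.9 FPKM there, above all other libraries. The 11 below the mean in PC308-1 were led by Sptb (-1.02), Serpina3n (-0.49) and Odc1 (-0.30). Sptb, erythroid beta-spectrin, was at 1.26 ± 0.0673 FPKM in PC308-1 and 18.2 ± 0.556 in PIC496-4. In PC326-1, Sostdc1, a secreted BMP antagonist gene that lies outside the raised stretch, read 8.71, 8.51 and 8.28 FPKM, the other libraries being at most 3.81.

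Some members exceeded the shift of their line. In PC308-1, Kcnk13, a potassium channel gene, was at 8.35 ± 0.598 FPKM, with all other libraries at or under 2.09. Itgb8, an integrin that activates TGF-beta, was at 16.9 ± 1.65 FPKM in PC308-1, 9 ± 0.452 in PIC496-3 and 1.5 ± 0.389 in PIC496-4. Fos was at 24.8 ± 1.60 FPKM in PC308-1 and at most 14.8 in the libraries of the other lines. The PIC496 lines had like medians but unlike genes. Bcl11b, a zinc finger factor of neurons and T cells, was at 3.53 ± 0.360 FPKM in PIC496-3 and 1.41 ± 0.118 in PIC496-4, and Eml1, a microtubule protein gene, at 7.66 ± 0.0835 and 1.96 ± 0.261. Rtn1, a reticulon gene of neuroendocrine cells, was at 29.5 ± 1.61 and 6.79 ± 0.351 FPKM. Crip2 went the other way, at 28.6 ± 1.92 FPKM in PIC496-3 and 76.5 ± 9.37 in PIC496-4. Over the members, all libraries of PIC496-3 lay above all of PIC496-4 in 32.1% and below in 35.2%, against 30% and 30.7% of the other genes. Between PIC144-1 and PIC144-3 these shares were 33.0% and 38.0%, against 35.5% and 37.5%.

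The design compares IDH1 mutant with IDH1 WT lines, and a line is 1 replicate in it (n = 4 and n = 3). Across the 13379 genes tested with limma on line means, 15 passed a Benjamini-Hochberg adjusted p of 0.05, which is 0.112%, with 0.0224% higher and 0.0897% lower in IDH1 mutant lines. Of the 324 members, 0 passed; limma voom on recovered fragments also called 0. At an unadjusted p under 0.05, 25 members did (21 higher and 4 lower in IDH1 mutant lines), 7.72% against 12.8% of all genes. The line values of the genotypes did not overlap in 5 members (1.54%), against 13.2% of all genes tested. The median member was 0.27 higher in IDH1 mutant lines, against 0.01 over all genes, and the median standard error of a member was 0.33, against 0.22. Of the 324 members, 257 (79.3%) had a higher mean in IDH1 mutant lines, against 50.9% of all genes, and the counts of the lists below stand beside that share. Of 8 function lists with members, 0 of the genes passed in each. In the growth control list 15 of 16, and in the chaperone and proteasome list 8 of 8, had higher means in IDH1 mutant lines. So did 7 of 10 in the list for DNA methylation, repair and replication, 6 of 8 for translation and 6 of 10 in the mitochondrial list. For AP-1, early response and TGF-beta, 3 of 6 did, while 9 of 12 neural patterning genes and both interferon genes had lower means.

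The 6 members with the smallest p were Rsad2, Odc1, Daam1, Bdkrb2, Clba1 and Ifrd1. Rsad2 was at 0.638 ± 0.444 FPKM in IDH1 mutant lines (SD, n = 4) and 4.13 ± 2.40 in IDH1 WT lines (SD, n = 3), a log2 difference of -1.98 (SE 0.41, limma adjusted p = 0.202). The libraries of IDH1 mutant lines reached at most 1.54 FPKM and those of IDH1 WT lines at least 2.07. Odc1, ornithine decarboxylase of polyamine synthesis, was at 148 ± 46.0 FPKM in IDH1 mutant and 68.5 ± 14.8 in IDH1 WT lines, a log2 difference of 1.08 (SE 0.26, limma adjusted p = 0.251). Every library of an IDH1 mutant line, from 95.4 FPKM up, exceeded every library of an IDH1 WT line, at most 92.7 FPKM. Daam1, a formin of Wnt and actin signalling, differed by 0.74 (limma adjusted p = 0.28) and Clba1 by 0.71 (limma adjusted p = 0.312), each without overlap of line means. Bdkrb2, the bradykinin B2 receptor gene, differed by 2.53 (limma adjusted p = 0.288), but PC308-1 at 2.85 ± 0.629 FPKM lay above PIC144-3 at 2.34 ± 0.293. Ifrd1 differed by 0.75 (limma adjusted p = 0.326) and PC308-1 lay above PIC496-3.

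**Figure D5:**
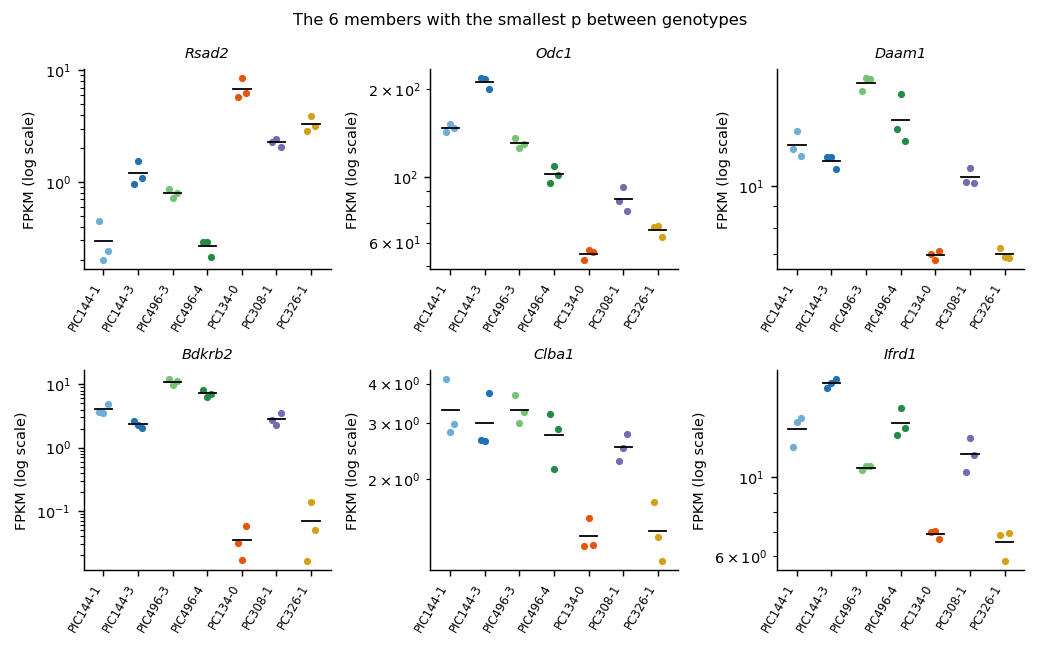
FPKM on a log axis (y) in each library (points) and line mean (bars) of the 6 members with the smallest p between genotypes; libraries at 0 would not be drawn, and none was. The IDH1 WT lines PC134-0 and PC326-1 lie apart from PC308-1 in Daam1, Bdkrb2, Clba1 and Ifrd1, and in Rsad2 and Odc1 all IDH1 WT libraries lie on 1 side of all IDH1 mutant libraries.

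The genotype result on chromosome 12 changed most with PC308-1 left out. The IDH1 WT lines left were then PC134-0 and PC326-1, the lowest lines on this chromosome. The chromosome was selected on such line deviations, so higher members in IDH1 mutant lines follow from that choice and are no separate support for a genotype difference. Without PC308-1, 3 of 323 members (0.929%) passed, against 0.22% of all genes, among them Vcpkmt (log2 difference 1.05, limma adjusted p = 0.047) and Ubxn2a (log2 difference 1.11, limma adjusted p = 0.0494). At an unadjusted p under 0.05, 190 members did (189 higher), 58.8% against 17.1% of all genes, and the median difference of members was 0.64. Leaving out PC134-0 or PC326-1 instead, it was 0.11 and 0.13, with 0 members called. Without PC134-0, 15 members had an unadjusted p under 0.05 (3 higher and 12 lower), 4.63% against 5.32% of all genes. Without PC326-1, 6 members did (3 higher and 3 lower), 1.85% against 7.04% of all genes. No fit held the level of chromosome 12 beside the genotype, so the part of that level in the difference of a single member was not tested.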

How the data were processed

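Messenger RNA was captured by polyA tail and sequenced as strand-specific read pairs, per the labels' protocols. The authors deposited FPKM of 54532 genes in 21 libraries. Per the submitters' processing notes, HISAT2 and the build mm39 were used; neither the counter nor its strand setting is given in the sources used here. The file's coordinates are those of GRCm38, in which all 324 members had the same position in GENCODE M21. FPKM times gene length gave whole fragments in 100% of values under 1000 fragments (tolerance 0.05), which set the depths. Libraries of a line differed by a chi-square per gene of 3.79 to 26.9, so none was a duplicate.

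Deviations used line means of log2(FPKM + 0.5), computed from the deposited FPKM. Genotypes were tested with limma 3.58.1 under R 4.3.3 (eBayes with its trend and robust options), keeping genes whose mean reached 0.5 FPKM in 3 or more of the 7 lines. The p-values are two-sided, with Benjamini-Hochberg adjustment, and measure the spread between lines. The libraries of a line may be technical repeats. On simulated lines with 200 of 13379 genes changed, the genotype fit recovered 34.4% of changes of 1 and 80.4% of changes of 2 on the log2 scale. Alternatives were pseudocounts, filters, scalings, other references, lines or replicates left out and fits over 21 libraries.

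The members and lists were chosen with earlier results of these data known. Named were the members of smallest p between genotypes, the most abundant and most variable of each list, the most abundant of each window, and the 3 most abundant, 3 largest and 3 opposite members of each shifted line; genes of the raised stretch, their neighbours, the genes at the FPKM minimum and the further list members with values were chosen after their values were seen. The 6 genes of the Dlk1-Dio3 list had no member. Same-numbered libraries of different lines correlated between -0.25 and 0.53, over 0.1 in 20 of 63 pairs, so the numbers were not taken to pair them. Figures were drawn with matplotlib 3.10.9. Values of a few list members are not reported here.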

Additional observations from a re-analysis of the deposited data

How the results depend on the processing

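The median deviation of chromosome 12 kept its sign in all 7 lines under both pseudocounts, both FPKM minimums, median-of-ratios scaling, autosome centring, the median of the other 6 lines and each replicate left out. With a pseudocount of 0.1 it was -0.57 in PC134-0, 0.58 in PC308-1 and -0.59 in PC326-1, and with 1 it was -0.50, 0.50 and -0.52, with 0.26 in PIC496-3. With members of at least 0.5 FPKM it was 0.26 in PIC496-3, -0.51 in PC134-0 and -0.52 in PC326-1, and with at least 10 FPKM 0.33, -0.58 and -0.63, with -0.0189 in PIC144-3. Rescaled to a constant sum (TPM) it was 0.0382 in PIC144-1, which had been below 0, -0.0751 in PIC144-3, 0.22 in PIC496-3, 0.25 in PIC496-4, -0.48 in PC134-0 and 0.57 in PC308-1. Against the median of the other 6 lines it was -0.0676 in PIC144-1, -0.10 in PIC144-3, 0.31 in PIC496-3, 0.35 in PIC496-4, -0.67 in PC134-0, 0.60 in PC308-1 and -0.67 in PC326-1. As a mean over members it was -0.0375 in PIC144-1, 0.000603 in PIC144-3, 0.20 in PIC496-4, 0.57 in PC308-1 and -0.48 in PC326-1. Outside the raised stretch, chosen after seeing the data, it was -0.58 in PC326-1. Protein-coding genes with 0.2 to under 2 FPKM gave -0.13 in PIC144-1, 0.0832 in PIC496-3, 0.0642 in PIC496-4, -0.24 in PC134-0, 0.39 in PC308-1 and -0.33 in PC326-1, and non-coding genes gave 0.0106 in PIC144-3, 0.0921 in PIC496-3, 0.12 in PIC496-4, -0.22 in PC134-0, 0.14 in PC308-1 and -0.23 in PC326-1. The cause of these moves was not tested. With each replicate left out, the medians were -0.0295 to -0.0162 in PIC144-1, -0.0434 to -0.0372 in PIC144-3, 0.27 to 0.29 in PIC496-3, 0.28 to 0.31 in PIC496-4, -0.54 to -0.53 in PC134-0, 0.54 to 0.55 in PC308-1 and -0.57 to -0.54 in PC326-1.

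The 15 genes called between genotypes became 3 without a filter on low values, 8 with a mean of at least 2 FPKM, 4 without PIC144-1, 5 without PIC496-4, 0 without PC134-0 (698 at an unadjusted p under 0.05), 29 without PC308-1, 1 without PC326-1, 6 with lines of a shared number averaged, and 5 with limma voom on recovered fragments, which was added after seeing the data. Leaving out replicates gave 15 to 17 genes, and 0 members each time. With the 21 libraries and the line as a random effect, 552 genes and 14 members passed without the replicate number as a block. That was 4.32% of members against 4.13% of all genes. With the replicate block, 440 genes and 9 members passed, 2.78% of members against 3.29% of all genes. Of the 21 libraries, 11 correlated best with their own number. Rsad2, Odc1, Daam1 and Bdkrb2 passed in both of these fits, and Ifrd1 in the one without the block; no alternative reversed the direction of the 6 named members. Windows with under 10 members (40 to 50 Mb and 90 to 100 Mb) hold 8 each, which limits their medians.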

Other observations

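Chromosome 13 ran opposite to chromosome 12 in the IDH1 WT lines. Its 350 protein-coding genes with at least 2 FPKM had medians of 0.34 in PC134-0, -0.31 in PC308-1 and 0.29 in PC326-1, beside -0.54, 0.54 and -0.55 on chromosome 12. In PIC496-3 and PIC496-4 it stood at -0.15 and -0.12, against 0.28 and 0.30. Chromosome 18 had the largest median of any autosome in PIC144-1, at -0.37.

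Genes of the imprinted Dlk1-Dio3 region of chromosome 12 were almost silent. Dlk1, which encodes a Notch-related membrane protein, was at 1.91 FPKM in PC134-0 and 0.645 FPKM in PC326-1, the lines with the lowest chromosome, and at most 0.0104 FPKM in the other 5 lines. Meg3, the maternally expressed long non-coding RNA of the region, was at most 0.000857 FPKM in any line. Mycn, an oncogene that lies elsewhere on chromosome 12, was under the FPKM minimum. PIC496-3 and PIC496-4, which had like chromosome 12 medians, held 2.62 and 0.0232 FPKM of it.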
